A study of Arabidopsis thaliana with 12 samples.

Results

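Autophagy genes of Arabidopsis thaliana are described here in 12 RNA sequencing libraries from seedlings given mock treatment or chitin. The members were chosen by their AGI locus codes as genes of the ATG1 to ATG18 families with ATG101, NBR1, VPS34 and VPS15, which gave 38 of the 32678 genes in the count table. The member list leaves out ATG1t, ATG14a, ATG14b and ATG18e, which are counted with further autophagy genes below. No measured value enters that list. The set was nevertheless picked out with its response to chitin in these libraries known, so its shares of called genes are a description, and nothing is read from them about autophagy genes as a class.

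Autophagy is the route by which a plant cell encloses cytoplasm in a double membrane, the autophagosome, and delivers it to the vacuole for breakdown. A kinase complex starts the process, a lipid kinase complex marks the membrane, lipid carriers enlarge it, and a pair of ubiquitin-like conjugation systems attach the small protein ATG8 to it. ATG8 on the membrane also binds receptors such as NBR1, which bring in ubiquitinated cargo. In Arabidopsis the pathway is best known for recycling nutrients during starvation and leaf senescence, and it also acts in responses to pathogens.

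Chitin is a polymer of fungal cell walls that plants perceive through receptors at the cell surface. Whole seedlings, 8 days old and grown with sucrose in the medium, spent 3 h in liquid medium and then received mock treatment or chitin. The dose is written as 40 mM in one text of the submitters and 40 µM in another, the treatment lasted 3 h, and both genotypes were handled alike. The wild type was Col-0 (Col below), and the mutant was 1 line, mapkkk5-1 (mapkkk5 below), named after a gene for a MAP kinase kinase kinase. Each of the 4 groups, Col mock, Col chitin, mapkkk5 mock and mapkkk5 chitin, held 3 libraries from 3 experiments that the design text calls independent. Values of 3 libraries are listed below in the order of the replicate numbers 1, 2 and 3, which are taken here as the numbers of the experiments, although the labels do not say so. All p-values measure the spread between these libraries.

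Libraries held 15455836 to 20179428 counted reads, and levels are given as CPM, reads scaled to a common library size that includes the TMM factor. All 38 members passed the filter on low counts, which left 20994 genes to test, and no member had fewer than 66 reads in any library. MAPKKK5 itself was at 28.1, 25.7 and 21.7 CPM in Col mock against 3.90, 5.29 and 3.81 CPM in the libraries labelled mapkkk5 mock, a log2 difference of -2.53 ± 0.27 (adjusted p = 0.00147). It was at 39.9, 37.5 and 45.3 CPM in Col chitin and at 26.7, 32.9 and 13.6 CPM in mapkkk5 chitin, and counts per gene do not show which part of the transcript was sequenced. Levels are averages over whole seedlings, so more RNA per cell and more cells of an expressing type cannot be told apart. Fold changes are log2 values ± SE, and each p-value comes from the quasi-likelihood test of edgeR, adjusted by the Benjamini-Hochberg method over all genes tested. A gene was called, or is said to have risen or fallen, where its adjusted p was below 0.05.

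The ATG8 proteins differ at their C terminus, and the ends of their coding sequences are shown because the 9 genes are followed one by one below. ATG8 is joined to lipid through a glycine, and in most members the protease ATG4 must first remove the residues that follow it. Each line below gives the last 36 coding bases, stop codon included, from RefSeq (TAIR10.1), with the codon of that glycine in capitals.
ATG8a: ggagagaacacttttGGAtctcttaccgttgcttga
ATG8b: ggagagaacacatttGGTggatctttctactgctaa
ATG8c: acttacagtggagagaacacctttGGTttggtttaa
ATG8d: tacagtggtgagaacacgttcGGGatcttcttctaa
ATG8e: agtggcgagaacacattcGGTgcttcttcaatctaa
ATG8f: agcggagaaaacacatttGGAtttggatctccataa
ATG8g: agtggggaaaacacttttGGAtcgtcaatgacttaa
ATG8h: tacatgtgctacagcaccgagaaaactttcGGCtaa
ATG8i: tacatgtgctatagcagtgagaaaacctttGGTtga
ATG8h and ATG8i ended in the glycine codon with 0 codons before the stop, and the other 7 genes had 2 to 5 codons in between. On the plus strand the stretches are chr4:11656774-11656809 (ATG8a), chr1:22934218-22934253 (ATG8c), chr2:18625491-18625526 (ATG8e) and chr3:22416936-22416971 (ATG8g). On the minus strand they are chr4:2328663-2328698 (ATG8b), chr2:2083211-2083246 (ATG8d), chr4:9306882-9306917 (ATG8f), chr3:1955219-1955254 (ATG8h) and chr3:5274075-5274110 (ATG8i).

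Chitin raised 32 of the 38 members in Col and lowered 0. Among all genes tested, 21.2% rose and 17.3% fell. The median log2 fold change of the members was 0.52, with a range from -0.09 to 1.46, and the median of all genes was 0.00. The changes were moderate in size. Folds of the 32 called members ran from 1.24 to 2.75. A called rise of at least 2-fold was found in 2 of the 38 members, ATG8e and ATG12a, and in 1553 of the 20994 genes tested. Members were higher with chitin in all 3 experiments in 37 of 38 cases, the exception being ATG18b. The matching share of all genes was not computed, so this count cannot be set against it. In 33 members the lowest chitin library lay above the highest mock library, as it did in 26.2% of all genes. The 6 members not called were ATG1c, ATG13b, ATG18b, ATG18c, ATG10 and ATG7. Same-numbered libraries were taken to share an experiment, and with the experiment as a block 35 members were called, against 26.5% of all genes raised.

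In mapkkk5, 28 members rose and 0 fell, where 19.1% of all genes rose and 15.7% fell. The median log2 fold change was 0.43, the range was -0.02 to 1.38, and the folds of called members ran from 1.23 to 2.61. All 28 had also risen in Col. The 10 members not called were the 6 named for Col with ATG18d, ATG12b, ATG8g and ATG8h. Chitin libraries lay wholly above mock libraries in 29 members, as in 23.9% of all genes. With the experiment as a block 33 members were called, against 24.5% of all genes raised.

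**Figure D1:**
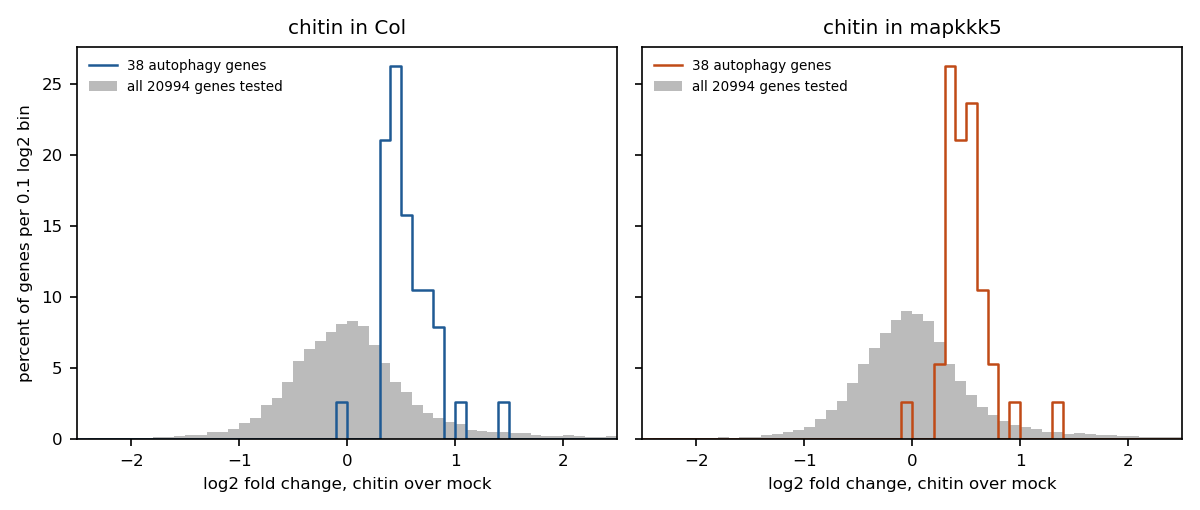
Log2 fold change of chitin over mock, in bins of 0.1, for all 20994 genes tested (grey bars) and for the 38 autophagy genes (line), as a percent of each set; genes beyond 2.5 in either direction are not drawn. In both genotypes 37 of the 38 members lie above 0, most of them between 0.3 and 0.9, while all genes centre on 0.

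**Figure D2:**
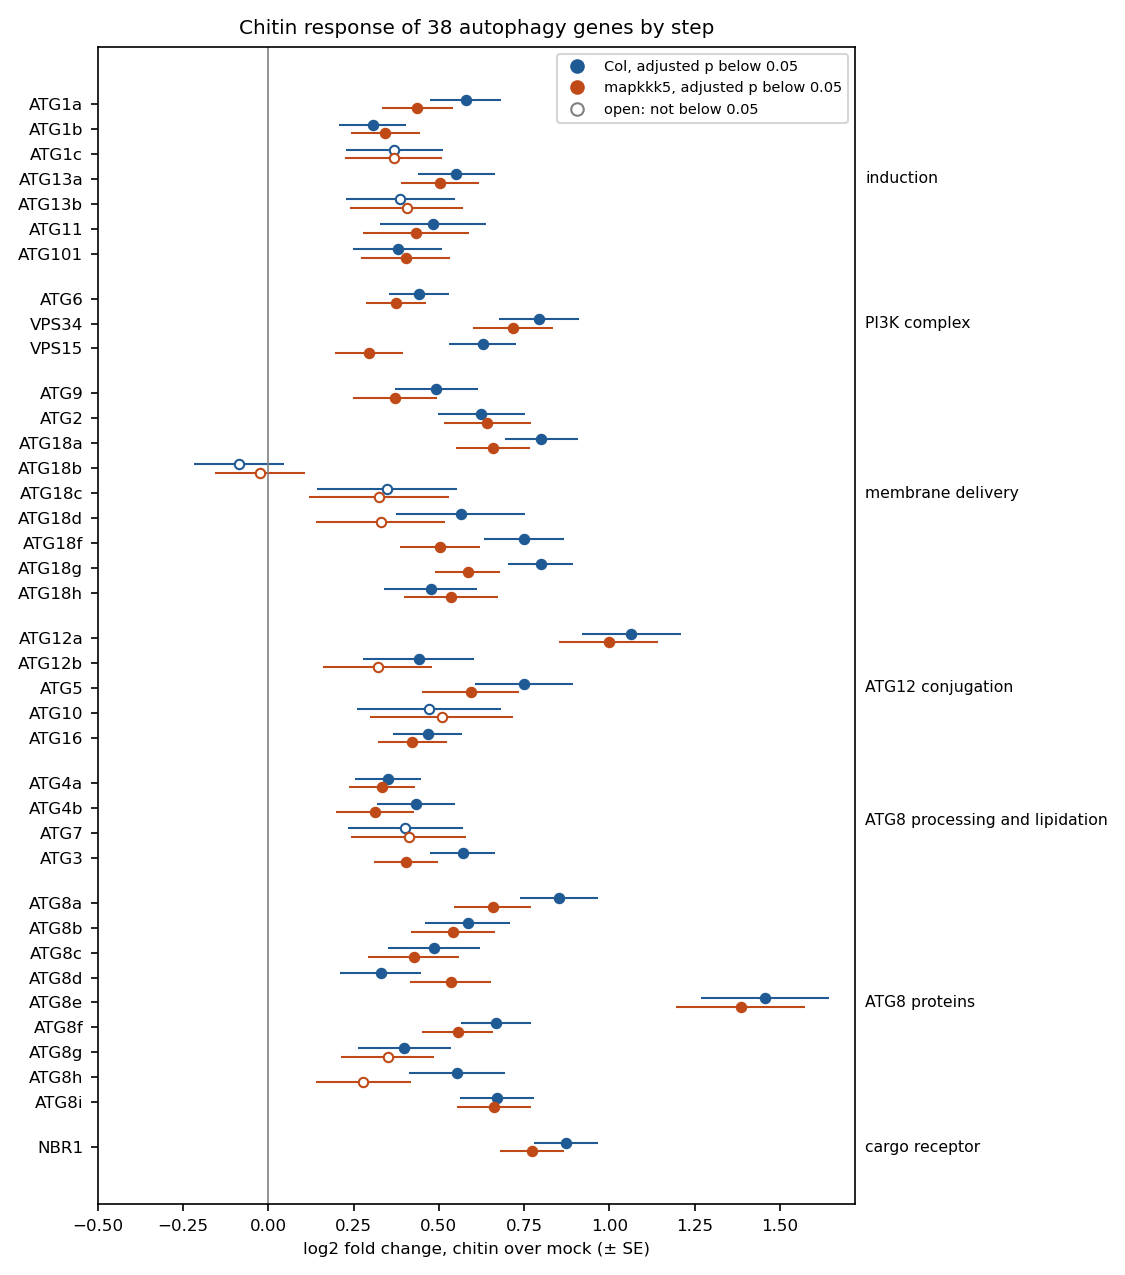
Log2 fold change of chitin over mock (x axis, ± SE, 3 libraries a group) of each autophagy gene, grouped by step, in Col (blue) and mapkkk5 (orange). Filled points have an adjusted p below 0.05. ATG8e and ATG12a lie farthest to the right, and ATG18b sits near 0 in both genotypes.

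The first step, induction, is run by the ATG1 kinase with its partners ATG13, ATG11 and ATG101. In each genotype 5 of the 7 members of this step rose, with a median log2 fold change of 0.39 in Col and 0.41 in mapkkk5. ATG1a (AT3G61960), 1 of 3 members for the kinase, was at 26.0, 29.4 and 27.6 CPM in Col mock and 43.8, 38.7 and 41.3 CPM in Col chitin. In mapkkk5 it was at 27.1, 24.7 and 24.5 CPM in mock and 37.9, 30.0 and 35.4 CPM with chitin. The chitin libraries lay above the mock libraries in both genotypes, and those of mapkkk5 lay below those of Col. The log2 fold change of ATG1a was 0.58 ± 0.10 in Col (adjusted p = 0.000621) and 0.44 ± 0.10 in mapkkk5 (adjusted p = 0.00515).

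ATG13a (AT3G49590), a gene for the regulatory partner of the kinase, moved from 17.7, 20.3 and 16.7 CPM to 24.9, 27.0 and 28.2 CPM in Col. In mapkkk5 it moved from 16.3, 17.6 and 18.1 CPM to 21.6, 24.9 and 27.2 CPM. Groups with and without chitin did not overlap in either genotype. ATG13a rose by 0.55 ± 0.11 in Col (adjusted p = 0.00181) and by 0.50 ± 0.11 in mapkkk5 (adjusted p = 0.00398). Also called in both genotypes were ATG1b, ATG11, a scaffold of the complex, and ATG101, which binds ATG13, with Col log2 fold changes of 0.31, 0.48 and 0.38. ATG1c, at 0.37 in each genotype, and ATG13b, at 0.39 in Col and 0.41 in mapkkk5, were not called. They were called with the experiment as a block, where the adjusted p was 0.00548 for ATG1c and 0.0242 for ATG13b in Col, and 0.00718 and 0.0273 in mapkkk5. With the block all 7 members of this step were called in each genotype. In the fit without the block some calls hung on 1 library, and single libraries were left out of that fit only. In Col the call of ATG1b was lost without any one of the mock libraries or chitin libraries 2 or 3 (adjusted p up to 0.0931), that of ATG11 without any one of the mock libraries or chitin libraries 1 or 3 (up to 0.0757), and that of ATG101 without mock libraries 1 or 3 or any one of the chitin libraries (up to 0.122). In mapkkk5 the call of ATG1b was lost without mock library 2 or chitin library 3 (up to 0.0804), and that of ATG101 without mock libraries 1 or 3 or chitin libraries 2 or 3 (up to 0.114). For ATG11 in mapkkk5 the call held in 3 of the 12 fits that leave out 1 library, those without Col chitin library 2, mapkkk5 mock library 1 or mapkkk5 chitin library 2, and its adjusted p rose to 0.18 at most. ATG11 shares 13% of its exon bases with AT4G30780 on the opposite strand, which rose by 0.53 in Col.

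The lipid kinase complex makes the phosphoinositide that marks the growing membrane. The member list holds 3 of its genes. All 3 rose in both genotypes, with a median log2 fold change of 0.63 in Col and 0.37 in mapkkk5. VPS34 (AT1G60490), the lipid kinase, was at 31.9, 31.8 and 33.7 CPM in Col mock and 56.3, 52.7 and 59.8 CPM in Col chitin. In mapkkk5 its mock libraries held 32.7, 25.4 and 30.9 CPM and its chitin libraries 51.3, 41.6 and 53.3 CPM. The rise was 0.79 ± 0.12 in Col (adjusted p = 0.000139) and 0.72 ± 0.12 in mapkkk5 (adjusted p = 0.000393), with no overlap between mock and chitin. ATG6, the Beclin homolog of the complex, rose by 0.44 ± 0.09 in Col and 0.37 ± 0.09 in mapkkk5.

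VPS15 (AT4G29380, chromosome 4, 14458648 to 14465684, plus strand) encodes the protein kinase partner of VPS34. It stood at 22.7, 22.6 and 23.5 CPM in Col mock and at 37.8, 32.6 and 35.9 CPM in Col chitin, a rise of 0.63 ± 0.10 (adjusted p = 0.000239). In mapkkk5 it stood at 22.2, 19.7 and 23.0 CPM in mock and at 28.9, 24.6 and 26.2 CPM with chitin, a rise of 0.30 ± 0.10 (adjusted p = 0.0339). Mock libraries of the genotypes overlapped, while every mapkkk5 chitin library lay below every Col chitin library. The call in mapkkk5 was lost without Col mock library 2, mapkkk5 mock libraries 1 or 2, or mapkkk5 chitin libraries 1 or 3, with adjusted p-values of up to 0.135. VPS15 shares 7.89% of its exon bases with AT4G29390 on the opposite strand, a gene with a log2 fold change of -0.17 in Col (adjusted p = 0.398) and -0.24 in mapkkk5. Median reads per library were 3794.5 for AT4G29390 and 425.5 for VPS15, and the part of this overlap in the VPS15 counts was not tested.

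Membrane delivery and growth draw on ATG9, a transmembrane protein of small vesicles, ATG2, a lipid carrier, and the ATG18 proteins, which bind the phosphoinositide. Of the 9 members of this step 7 rose in Col and 6 in mapkkk5, with medians of 0.56 and 0.50. ATG18g (AT1G03380) was at 24.8, 30.1 and 27.3 CPM in Col mock and at 45.9, 47.1 and 49.9 CPM in Col chitin. In mapkkk5 the values were 26.0, 25.7 and 28.1 CPM in mock and 41.7, 36.8 and 41.1 CPM with chitin. Chitin libraries were higher throughout, and the chitin libraries of mapkkk5 were all below those of Col. ATG18g rose by 0.80 ± 0.10 in Col (adjusted p = 2.46e-05) and by 0.58 ± 0.10 in mapkkk5 (adjusted p = 0.00041).

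ATG18a (AT3G62770) went from 21.7, 18.3 and 17.1 CPM to 35.2, 29.4 and 34.8 CPM in Col. In mapkkk5 it went from 19.7, 18.8 and 18.7 CPM to 31.4, 29.8 and 29.0 CPM. Its rise was 0.80 ± 0.11 in Col (adjusted p = 6.69e-05) and 0.66 ± 0.11 in mapkkk5 (adjusted p = 0.000412), and mock and chitin libraries did not overlap. The 7 ATG18 members did not move alike. ATG18b was flat, at -0.09 ± 0.13 in Col (adjusted p = 0.65) and -0.02 ± 0.13 in mapkkk5 (adjusted p = 0.91), and it was the 1 member with a fitted change below 0. ATG18c, the third lowest member per length in Col mock, had 0.35 and 0.32 and was not called. ATG18d was called in Col at 0.56 ± 0.19 and not in mapkkk5 at 0.33 ± 0.19 (adjusted p = 0.201), and the test of the difference gave an unadjusted p of 0.395. ATG18f, ATG18h, ATG2 and ATG9 rose in both genotypes. ATG2 was at 0.62 ± 0.13 and 0.64 ± 0.13, and ATG9 at 0.49 ± 0.12 and 0.37 ± 0.12, in Col and mapkkk5. The Col call of ATG18d was lost without mock libraries 1 or 3 or chitin libraries 2 or 3 (adjusted p up to 0.121), and that of ATG18h without chitin library 3 (0.054). The mapkkk5 call of ATG9 was lost without mock libraries 1 or 2 or chitin libraries 1 or 3 of that genotype (up to 0.137).

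The first conjugation system joins the ubiquitin-like ATG12 to ATG5 with the help of ATG10, and ATG16 binds the product. Here 4 of 5 genes rose in Col and 3 of 5 in mapkkk5, with medians of 0.47 and 0.51. ATG12a (AT1G54210, chromosome 1, 20241226 to 20242641, plus strand) was at 11.3, 9.02 and 10.4 CPM in Col mock and at 23.2, 22.9 and 18.2 CPM in Col chitin. In mapkkk5 it was at 9.86, 12.2 and 10.2 CPM in mock and at 19.9, 24.8 and 19.9 CPM with chitin. Levels about doubled, with wide gaps between mock and chitin libraries. The log2 fold change of ATG12a was 1.06 ± 0.15 in Col (adjusted p = 7.21e-05) and 1.00 ± 0.14 in mapkkk5 (adjusted p = 0.000148). Its paralog ATG12b changed less, with 0.44 ± 0.16 in Col (adjusted p = 0.0481) and 0.32 ± 0.16 in mapkkk5 (adjusted p = 0.139), and the Col call held in 3 of the 12 fits that leave out 1 library, those without mapkkk5 mock library 2 or mapkkk5 chitin libraries 2 or 3 (up to 0.139 in the rest).

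ATG5 (AT5G17290) moved from 15.0, 12.8 and 13.6 CPM to 25.5, 23.7 and 20.6 CPM in Col. In mapkkk5 it moved from 14.4, 17.8 and 14.6 CPM to 21.4, 28.4 and 20.9 CPM, again without overlap. The change was 0.75 ± 0.14 in Col (adjusted p = 0.00103) and 0.59 ± 0.14 in mapkkk5 (adjusted p = 0.0054). ATG5 shares 27.6% of its exon bases with AT5G17280 on the other strand, which rose by 0.69 in Col. No source used here gives the strand setting of the counting, so how reads in the shared bases were counted is not known. In all, 12 members share exon bases with a counted gene on the opposite strand. ATG16 rose by 0.47 ± 0.10 and 0.42 ± 0.10 in Col and mapkkk5. ATG10, the conjugating enzyme, had 0.47 ± 0.21 and 0.51 ± 0.21 and was not called, although with the experiment as a block its adjusted p in mapkkk5 was 0.0385.

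The second system prepares ATG8 and attaches it to lipid. It consists of the proteases ATG4a and ATG4b, the activating enzyme ATG7, which serves both systems, and the conjugating enzyme ATG3. In each genotype 3 of these 4 genes rose, with medians of 0.42 in Col and 0.37 in mapkkk5. ATG3 (AT5G61500) was at 41.2, 45.4 and 49.0 CPM in Col mock and at 65.9, 69.4 and 66.0 CPM in Col chitin. In mapkkk5 its values were 45.1, 46.8 and 44.1 CPM in mock and 60.6, 54.3 and 64.9 CPM with chitin. No chitin library fell into the mock range, and the chitin range of mapkkk5 lay just below that of Col. ATG3 rose by 0.57 ± 0.09 in Col (adjusted p = 0.000359) and by 0.40 ± 0.09 in mapkkk5 (adjusted p = 0.00477).

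ATG4b (AT3G59950) moved from 26.3, 29.6 and 27.9 CPM to 36.1, 39.9 and 37.1 CPM in Col. In mapkkk5 it moved from 25.3, 28.3 and 29.1 CPM to 29.4, 33.3 and 40.0 CPM. The mapkkk5 ranges nearly touched, with 29.1 CPM as the highest mock and 29.4 CPM as the lowest chitin value. ATG4b rose by 0.43 ± 0.11 in Col (adjusted p = 0.00833) and by 0.31 ± 0.11 in mapkkk5 (adjusted p = 0.0475). The mapkkk5 call of ATG4b held in 1 of the 12 fits that leave out 1 library, the one without mapkkk5 chitin library 1, and its adjusted p ran from 0.0158 to 0.224. ATG4b shares 6.68% of its exon bases with AT3G59940 on the opposite strand, which had 0.735 in Col and 1.12 in mapkkk5. ATG4a was called at 0.35 ± 0.10 and 0.33 ± 0.10, but 42.6% of its exon bases are shared with AT2G44130 on the other strand, which rose by 1.65 in Col. The Col call of ATG4a was lost without Col mock library 1 (adjusted p = 0.0516), and its mapkkk5 call without library 3 of mapkkk5 mock or of mapkkk5 chitin (up to 0.0742). ATG7 had 0.40 ± 0.17 in Col (adjusted p = 0.0758) and 0.41 ± 0.17 in mapkkk5 (adjusted p = 0.0775) and passed with the experiment as a block (adjusted p = 0.042 in each).

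All 9 ATG8 genes rose in Col and 7 of 9 in mapkkk5, with medians of 0.58 and 0.54. ATG8e (AT2G45170, chromosome 2, 18624264 to 18625791, plus strand) was at 42.7, 32.9 and 30.4 CPM in Col mock and at 124, 98.3 and 68.9 CPM in Col chitin. In mapkkk5 it was at 34.5, 31.7 and 32.9 CPM in mock and at 92.2, 73.5 and 92.8 CPM with chitin. Every chitin library was well above every mock library, and the Col chitin libraries were spread widely. ATG8e rose by 1.46 ± 0.19 in Col (adjusted p = 4.51e-05) and by 1.38 ± 0.19 in mapkkk5 (adjusted p = 8.71e-05), a 2.75-fold and 2.61-fold change and the largest among the 38 members in both genotypes.

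ATG8a (AT4G21980) moved from 52.5, 52.3 and 56.9 CPM to 107, 103 and 82.4 CPM in Col. In mapkkk5 it moved from 52.6, 59.4 and 61.3 CPM to 88.3, 85.3 and 99.7 CPM. Mock and chitin did not overlap, and ATG8a rose by 0.85 ± 0.11 in Col (adjusted p = 6.03e-05) and by 0.66 ± 0.11 in mapkkk5 (adjusted p = 0.000587). The other 7 genes had Col log2 fold changes between 0.33 (ATG8d) and 0.67 (ATG8i). ATG8h and ATG8i, whose coding sequences end in the glycine codon, differed from each other in mapkkk5. ATG8i rose by 0.66 ± 0.11 there, while ATG8h had 0.28 ± 0.14 (adjusted p = 0.143) and overlapping libraries, and these changes were not tested against each other. ATG8g, at 0.35 ± 0.14, was not called in mapkkk5 except with the experiment as a block (adjusted p = 0.0188). The Col call of ATG8c was lost without mock library 2 or chitin library 1 (adjusted p up to 0.0635), and its mapkkk5 call without mock libraries 1 or 2 or chitin library 1 of that genotype (up to 0.0812). The Col call of ATG8d was lost without any one of the Col mock libraries, Col chitin libraries 1 or 2 or mapkkk5 mock library 3 (up to 0.2), and that of ATG8g without Col mock libraries 2 or 3 or Col chitin libraries 1 or 2 (up to 0.127).

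In Col chitin, library 3 was the lowest of the 3 libraries for all 9 ATG8 genes, whose summed level was 590.2, 540.2 and 429 CPM. Library 3 was also the lowest for 4 of the 5 ATG12 conjugation genes and for 13 of all 38 members, and for 0 of the 7 induction genes. The summed senescence reporters, at 1299, 1164 and 855 CPM, and carbon starvation reporters, at 456, 480.0 and 369 CPM, were lowest there too. The summed level of 12 root marker genes was 1789, 2209 and 3365 CPM in Col chitin. That sum was the highest in library 3 of all 4 groups, while the ATG8 sum in mapkkk5 chitin was 508, 466 and 510.5 CPM, with library 3 not the lowest. The part of the root markers in the ATG8 values was not tested. Without Col chitin library 3 the log2 fold change of ATG8e in Col was 1.66, and 26 members were called, against 19.7% of all genes raised. That count was not particular to library 3. Without any one of the other Col libraries 25 to 27 members were called, against 17.8% to 19% of all genes. Mean shares of the ATG8 reads shifted towards ATG8e, from 11.4% ± 1.68 to 18.4% ± 2.51 in Col and from 10.6% ± 0.763 to 17.4% ± 1.37 in mapkkk5 (SD, n = 3). The share of ATG8d moved from 10.8% ± 0.228 to 8.1% ± 0.699 in Col. The total of the 9 genes was 309.6 ± 15.9 CPM in Col mock, 520.0 ± 82.3 CPM in Col chitin, 313 ± 9.48 CPM in mapkkk5 mock and 495 ± 25.2 CPM in mapkkk5 chitin (SD, n = 3).

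**Figure D3:**
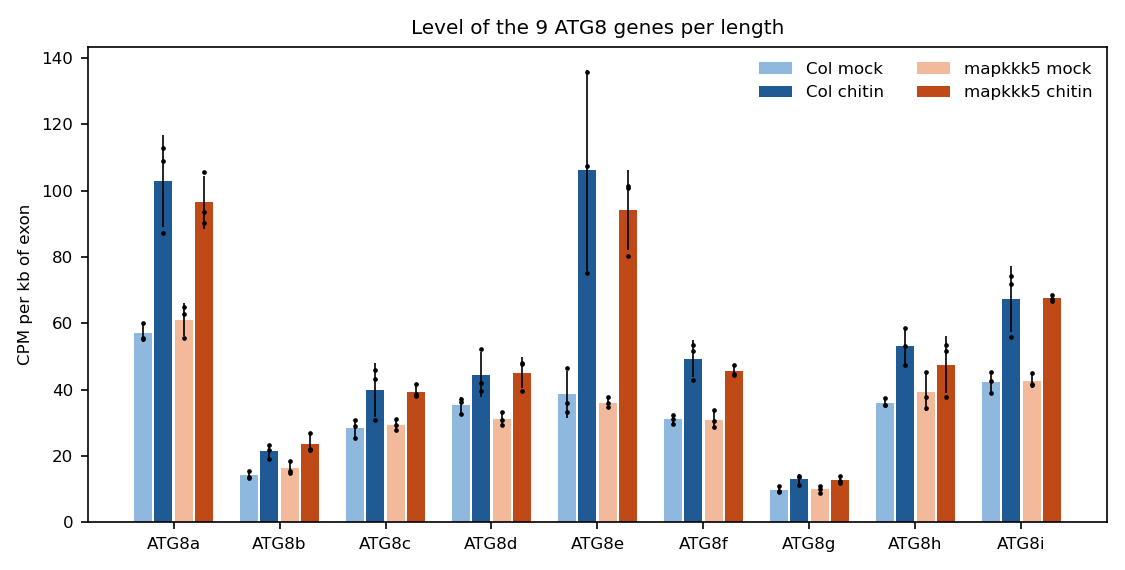
Level of each ATG8 gene in CPM per kb of exon, by group (bars, mean; error bars, SD; dots, the 3 libraries). ATG8a is the highest in both mock groups, and ATG8e rises to about the level of ATG8a with chitin in both genotypes, with the widest spread in Col chitin.

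NBR1 (AT4G24690, chromosome 4, 12741032 to 12744670, plus strand) encodes a receptor that links ubiquitinated proteins to ATG8. It was at 247, 230.4 and 233 CPM in Col mock and at 410.1, 443 and 447 CPM in Col chitin. In mapkkk5 it was at 213, 209.8 and 210.1 CPM in mock and at 376, 331 and 376 CPM with chitin. Replicates were close together in mock, and in both treatments all mapkkk5 libraries lay below all Col libraries. After chitin such a gap was found in 5.62% of all genes. The difference between the genotypes in NBR1 was not called in mock or after chitin. NBR1 rose by 0.87 ± 0.09 in Col (adjusted p = 1.01e-05), the smallest p among the members, and by 0.77 ± 0.09 in mapkkk5 (adjusted p = 3.68e-05).

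**Figure D4:**
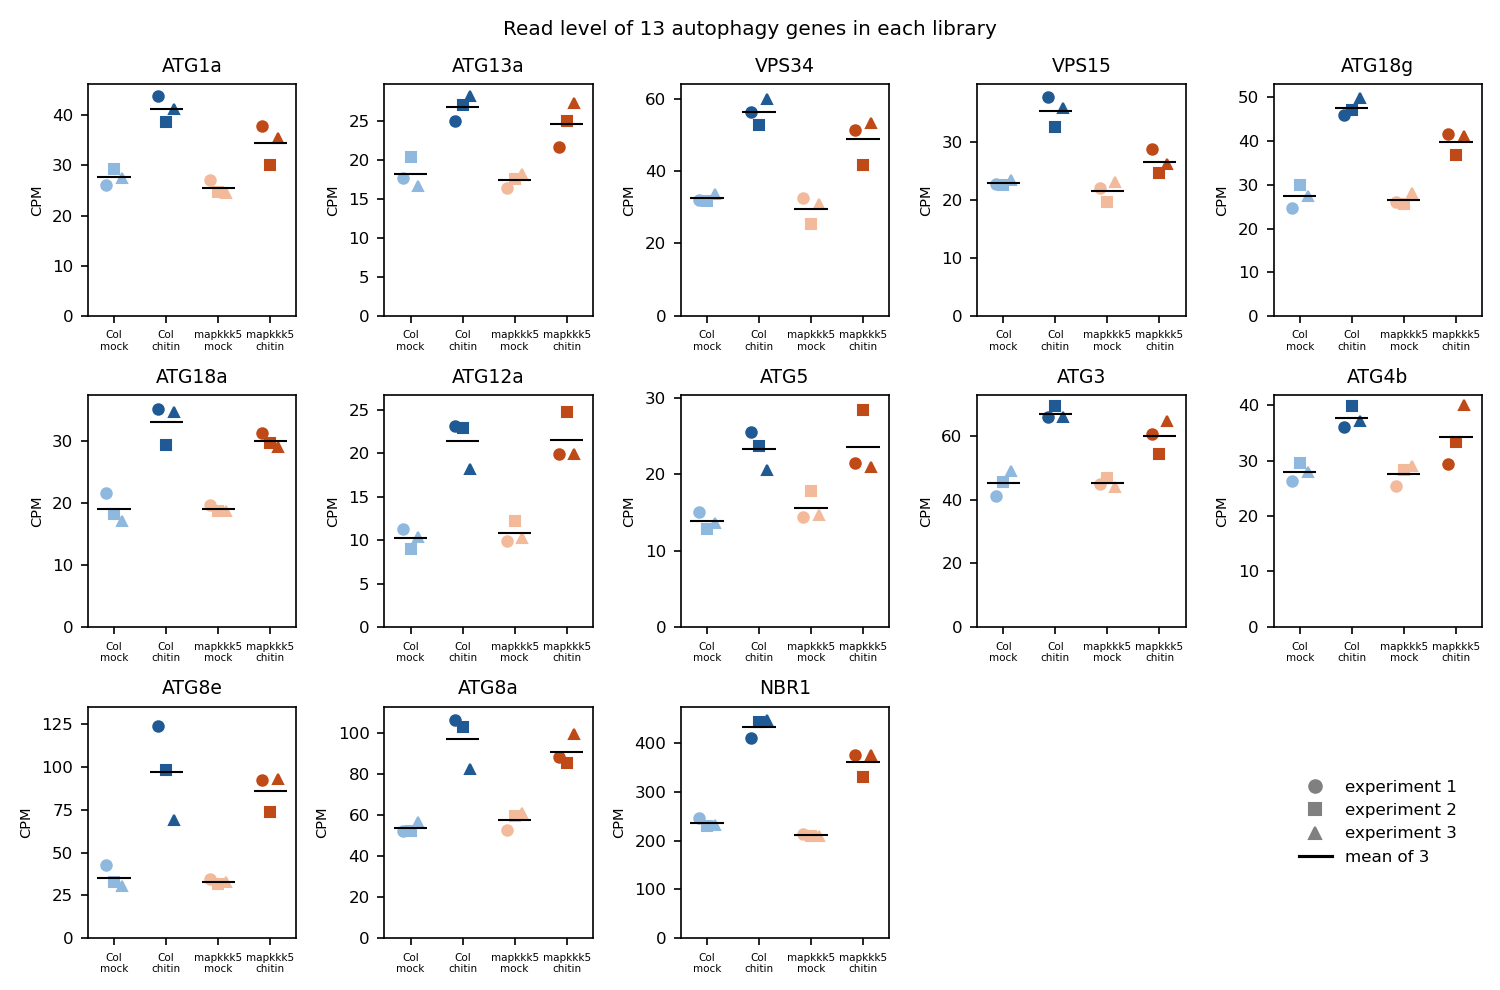
CPM in each library (points, 1 symbol per experiment) and group mean (line) for the 13 members whose values are given for every library, with the y axis from 0. Chitin libraries lie above mock libraries of the same genotype in all 13. In ATG1a, VPS15, ATG18g, ATG3 and NBR1 every chitin library of mapkkk5 lies below every chitin library of Col, as in 5.62% of all genes.

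Levels can be set against each other only per length, as CPM per kb of exon. On that scale NBR1 was the highest member in all 4 groups, with 86.4 ± 3.30 CPM per kb in Col mock, 1.51 times the level of ATG8a (57.0 ± 2.73). ATG8i, ATG8e, ATG8h, ATG8d and ATG8f followed at 42.3 to 31.1, and the ranges of ATG8i, ATG8e, ATG8h and ATG8d overlapped their neighbours in this order. At the bottom ATG18d and ATG13b, at 2.67 ± 0.588 and 2.72 ± 0.244 CPM per kb, overlapped as well. With chitin ATG8e moved from rank 4 to rank 2 in Col, at 106 ± 30.3 against 103.0 ± 13.8 CPM per kb for ATG8a, which lies within their spread (SD, n = 3). VPS34 and VPS15, partners in 1 complex, stood at 11.3 ± 0.376 and 4.02 ± 0.0837 CPM per kb in Col mock.

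Differences between the genotypes were small. In mock, 0 members were called in mapkkk5 against Col, where 0.0191% of all genes were. At an unadjusted p below 0.05 there were 463 of all genes tested and 3 members, ATG1b (-0.23), ATG13b (-0.48) and ATG12b (0.40). The member count was 0 without Col mock library 3 and without mapkkk5 mock library 2, where 410 and 349 genes passed. It was 5 without mapkkk5 mock library 1, with 533 genes, and 6 with the experiment as a block, with 1339 genes. After chitin, 0 members were called again, against 0.0714% of all genes, and DESeq2 also called 0. Fitted log2 differences were below 0 in 28 members and above 0 in 10, with a median of -0.14 against -0.01 for all genes. The median was -0.09 without Col chitin library 1 and -0.06 without experiment 2. With upper-quartile scaling or library totals alone 25 members were below 0. In 8 members, ATG1a, ATG1b, ATG13b, VPS15, ATG18g, ATG16, ATG3 and NBR1, the highest mapkkk5 chitin library lay below the lowest Col chitin library, as in 5.62% of all genes. The reverse held for ATG12b and for 3.69% of all genes. In mock all mapkkk5 libraries lay below all Col libraries in 5 members. These were ATG1b, ATG13b and NBR1 of those 8, with ATG2 and ATG18h. They lay above the Col libraries in 1 member, ATG12b. The share of all genes with mock ranges apart was not computed. Mock ranges of the genotypes overlapped in ATG1a, VPS15, ATG18g, ATG16 and ATG3.

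At an unadjusted p below 0.05 after chitin there were 1276 of all genes tested and 5 members, VPS15, ATG13b, NBR1, ATG18g and ATG1a. The member count rested largely on mapkkk5 chitin library 2, the lowest of its group in 24 of the 38 members. Without that library 1 member and 791 genes were left. The count was 2 members without experiment 2, with 599 genes, and 10 with the experiment as a block, with 3002 genes. VPS15 had the smallest p, with a difference of -0.42 ± 0.10 (unadjusted p = 0.000887, adjusted p = 0.282). With the experiment as a block VPS15 was called (adjusted p = 0.037), 1 member where 0.457% of all genes were called. Other settings gave VPS15 differences from -0.37 to -0.48 with adjusted p-values from 0.151 to 1. The differences of NBR1 and ATG1a were each -0.26 (adjusted p = 0.777 and 0.794).

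The difference of the chitin responses, mapkkk5 minus Col, was called in 0 members and in 0 of 20994 genes, which is 0%. Before adjustment 275 genes were below 0.05, and 1 of them was a member. That member was VPS15, at -0.33 ± 0.14 with an unadjusted p of 0.0335 and an adjusted p of 1 in edgeR. Its unadjusted p was above 0.05 without Col mock libraries 1 or 2, Col chitin libraries 1 or 3, mapkkk5 mock libraries 1 or 3, or mapkkk5 chitin libraries 2 or 3, at 0.0859 at most. DESeq2 called 4 genes, the fit with the experiment as a block 2 and the fit without a filter 1, none of them a member. Responses were smaller in mapkkk5 in 29 members and larger in 9, with a median difference of -0.06 against -0.01 over all genes, and library totals alone gave 25 and 13. Without experiment 2 the split was near even, 21 smaller and 17 larger with a median of -0.0084, and the median was -0.10 without Col chitin library 3 or mapkkk5 chitin library 3. Members share libraries, so these counts are not independent observations. The difference was -0.07 ± 0.26 for ATG8e and -0.07 ± 0.20 for ATG12a, and a p that misses the threshold does not show equal responses.

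ATG101 lies close to the mutated gene, 26.4 kb from MAPKKK5 on chromosome 5 with 7 counted genes in between. Its level in mock was 19.2 ± 2.20 CPM in Col and 19.1 ± 2.92 CPM in mapkkk5 (SD, n = 3), and with chitin it rose by 0.38 ± 0.13 and 0.40 ± 0.13.

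Upstream sequences are shown for the 3 members with the largest Col log2 fold changes, ATG8e, ATG12a and NBR1, because the members rose together. Each line gives the 250 bases before the annotated gene start on the gene's own strand (RefSeq, TAIR10.1), at chr2:18624014-18624263, chr1:20240976-20241225 and chr4:12740782-12741031, all plus strand. None of these windows touches an annotated exon. Capitals mark the W-box core TTGAC, a motif bound by WRKY transcription factors, on either strand, so that its complement reads GTCAA.
ATG8e: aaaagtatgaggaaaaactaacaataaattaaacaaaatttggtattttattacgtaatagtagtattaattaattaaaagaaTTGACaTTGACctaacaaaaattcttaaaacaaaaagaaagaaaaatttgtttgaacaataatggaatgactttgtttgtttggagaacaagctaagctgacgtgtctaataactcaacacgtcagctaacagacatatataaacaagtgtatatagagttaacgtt
ATG12a: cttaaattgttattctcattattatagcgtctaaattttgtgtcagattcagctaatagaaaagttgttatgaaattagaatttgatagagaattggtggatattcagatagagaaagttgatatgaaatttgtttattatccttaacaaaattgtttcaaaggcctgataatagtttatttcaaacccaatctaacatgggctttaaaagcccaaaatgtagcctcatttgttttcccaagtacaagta
NBR1: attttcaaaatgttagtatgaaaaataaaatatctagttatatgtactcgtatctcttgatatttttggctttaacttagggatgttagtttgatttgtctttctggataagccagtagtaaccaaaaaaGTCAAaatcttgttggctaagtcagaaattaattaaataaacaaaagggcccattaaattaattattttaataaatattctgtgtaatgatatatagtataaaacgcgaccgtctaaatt
The core occurred 2 times in the ATG8e window, 0 times in that of ATG12a and 1 time in that of NBR1. Over the 38 members 12 windows held it, or 31.6%, against 45.0% of the 26711 windows of protein-coding genes. Members with the core had a median Col log2 fold change of 0.45 and the 26 members without it 0.55. The G-box CACGTG was in 3 member windows, or 7.89%, against 6.58% of all windows. These matches describe letters in a short window only.

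Other genes of the pathway were followed in lists written for this purpose. Of 19 further autophagy genes 17 were tested, and 10 rose and 1 fell in Col, with 9 and 1 in mapkkk5. ATI2, an ATG8-interacting protein, moved from 42.6, 44.1 and 42.1 CPM to 61.6, 74.0 and 66.7 CPM in Col, a rise of 0.65 ± 0.11 (adjusted p = 0.000473). CFS1, which acts on autophagosome delivery to the vacuole, rose by 0.75 ± 0.14 and EXO70B1, an exocyst subunit tied to autophagy, by 0.51 ± 0.10. The 1 gene that fell was RABG3B, a small GTPase of the vacuolar route, from 13.6, 17.2 and 14.8 CPM to 8.27, 10.5 and 6.24 CPM in Col, at -0.87 ± 0.21 (adjusted p = 0.00508). In mapkkk5 it was at -0.72 ± 0.21 (adjusted p = 0.0158).

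Of 17 upstream regulators 10 rose and 1 fell in Col, and 6 rose and 1 fell in mapkkk5. WRKY33, a transcription factor of defence, went from 31.8, 29.4 and 28.5 CPM to 159.8, 187 and 196 CPM in Col, a rise of 2.60 ± 0.15 (adjusted p = 3.52e-08), and rose by 2.45 ± 0.15 in mapkkk5. HY5, a transcription factor of light signalling, rose by 0.61 ± 0.11 and 0.57 ± 0.11 in Col and mapkkk5. The SINAT family includes ubiquitin ligases that act on ATG6 and ATG13. SINAT3, annotated with RING and TRAF-like domains, had 0.50 ± 0.12 in Col. SINAT6, annotated as TRAF-like with no RING domain named, was a low gene of 2.68, 2.24 and 1.64 CPM in Col mock. It fell in Col, at -1.05 ± 0.32 (adjusted p = 0.0203). In mapkkk5 SINAT6 had -0.70 ± 0.31 (adjusted p = 0.0971), and the 1 regulator that fell there, named after its value was seen, was RAPTOR2, a partner of the TOR kinase, at -0.60 ± 0.16 (adjusted p = 0.0104).

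Genes known as reporters of carbon starvation and darkness rose in 6 of 8 cases in each genotype, with a median Col log2 fold change of 1.43. DIN10 went from 113, 102 and 100.3 CPM to 249, 287 and 248 CPM in Col, TPS8 rose by 1.55 ± 0.17, and BCAT2 rose by 1.71 ± 0.29. Reporters of senescence rose in 6 of 7 tested genes in each genotype. NAP, a transcription factor of leaf senescence, went from 3.45, 3.65 and 3.74 CPM to 37.1, 37.7 and 24.0 CPM in Col, a rise of 3.18 ± 0.21 (adjusted p = 1.06e-07). SAG13 and SAG21 rose by 2.78 ± 0.38 and 1.15 ± 0.18, and SAG12, a late senescence protease, had 0 reads in all 12 libraries.

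Markers of tissue moved with chitin too. Of 12 root markers 5 fell and 2 rose in Col, and their summed level was 4249 to 6139 CPM in Col mock and 1789 to 3365 CPM in Col chitin. In mapkkk5 the root sum was 3575 to 5607 CPM in mock and 1592 to 2476 CPM with chitin, with 5 genes called lower. With the experiment as a block 7 root markers fell in each genotype, and 2 rose in Col and 1 in mapkkk5. The root genes of the iron transporter IRT1 (-2.84 ± 0.52), the thalianol synthase THAS1 (-3.12 ± 0.53) and the glucosidase PYK10 (-1.05 ± 0.26) fell in Col, while EXPA7 of root hairs (0.84 ± 0.28) and SCR of the endodermis (0.26 ± 0.10) rose. The sum of 7 shoot markers was 11939 to 12887 CPM in Col mock and 8702 to 9402 CPM in Col chitin, with RBCS1A and PSAD1 called lower at -0.54 and -0.63. In mapkkk5 the shoot sum was 9812 to 12928 CPM in mock and 8157 to 10553 CPM with chitin, with 0 genes called. With the experiment as a block 5 shoot markers fell in Col, and 4 fell and 1 rose in mapkkk5. Mean levels of both sums were lower with chitin, where the autophagy genes were higher, and the part of tissue proportions in the autophagy values was not tested. Stomatal lineage markers had 0 of 7 called in Col, or 1 with the block, and 1, EPF2 at -0.69 ± 0.20, in mapkkk5. Of the 2 phloem markers SUC2 rose by 0.42 ± 0.12 and 0.39 ± 0.12 in Col and mapkkk5, while APL had -0.22 ± 0.13 and -0.09 ± 0.13 and was not called. The 6 seed storage genes tested had 0 calls, and their sum ran from 0.213 to 83.6 CPM over the mapkkk5 libraries and from 0.253 to 22.9 CPM over the Col libraries.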

How the data were processed

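Poly(A)-enriched RNA of whole seedlings was sequenced with a directional kit, per the labels. The authors deposited raw read counts per gene for 12 libraries, with no normalization. Per the submitters' processing notes the tools were HTSeq 0.6.1, TopHat2 2.0.10, cutadapt 1.5 and CASAVA 1.8.2, with the build TAIR10; no source used here gives their settings, strand included. Counts were analysed with edgeR 4.0.16 in R 4.3.3, with filterByExpr, TMM and 1 quasi-likelihood model of 4 groups (8 residual degrees of freedom), tested on simulated data. Members and gene lists were chosen with earlier results of these data known. Values in every library are given for the 2 members of each step with the smallest p for chitin in Col, members called at 2-fold or more and members called between genotypes; of other lists, up to 3 raised and 3 lowered genes. Between groups that were compared, same-numbered libraries deviated together (12 of 12 pairs, r = 0.156 to 0.509; different numbers, r = -0.442 to 0.143), and the numbers were taken as pairs; between groups not compared, Col mock 1 with mapkkk5 chitin 1 had r = -0.0423. All 12 replicate pairs differed beyond counting noise, with a chi-square over its degrees of freedom of 10.8 to 26.8. At these depths 3 reads, the limit a count of 0 allows, were 0.152 to 0.200 CPM, counting error only. Alternatives were other scalings, no filter, DESeq2 1.42.0, the experiment block, 2 groups alone and libraries left out. Names and positions are from RefSeq TAIR10.1 (31912 of 32678 identifiers matched).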

Additional observations from a re-analysis of the deposited data

How the results depend on the processing

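Members raised by chitin numbered 32 in Col and 28 in mapkkk5, and RLE scaling gave 30 and 28, library totals alone 27 and 25, no filter on low counts 31 and 27, DESeq2 30 and 27, and the 2 groups alone 28 and 22. Shares of all genes raised in Col and mapkkk5 were 21.2% and 19.1% in the main fit, and 20.4% and 18.9% with RLE scaling. They were 18.9% and 18.1% with library totals alone and 17.3% and 15.6% with no filter. DESeq2 gave 17% and 16%, and the 2 groups alone 20.5% and 17.5%. Upper-quartile scaling moved the median of all genes in Col to -0.11; relative to it the member median stayed at 0.52, 24 and 20 members were called, and 17.1% of all genes were raised in Col and 23.9% lowered. Lowered members numbered 0 in every setting. With the replicate block, which pairs libraries of the same number, 35 and 33 were raised, and 1 member, VPS15, was called between the genotypes after chitin. Leaving out 1 library or 1 experiment gave 20 to 32 raised members in Col and 17 to 30 in mapkkk5. The lowest were 20 without experiment 1 in Col, with 15.5% of all genes raised, and 17 without experiment 3 in mapkkk5, with 13.5%. Of the 32 Col calls 22 held in all 12 fits without 1 library, and of the 28 mapkkk5 calls 20; no called member changed sign. The lowest members had wide errors, with standard errors of up to 0.21 for ATG10 and ATG18c, and 3 libraries a group limit what can be told between genotypes.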
